A study of Mus musculus with 2 samples.

Results

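The transcription factors that set luminal cell identity in the mammary gland were read in progestin and DMBA induced mammary tumors of FVB wild-type mice. The set held 10 genes, Foxa1, Gata3, Tbx3, Spdef, Elf5, Ehf, Elf3, Id2, Nfib and Sox9, out of 12393 genes with a probe set of a single gene name. All probe sets naming 1 of these genes by a current or older symbol were taken, which gave 20 of the 22690 probe sets on the array. Both groups were female wild-type FVB littermates, 5 weeks old when treatment began, given 15 mg medroxyprogesterone acetate, a long-acting progestin, and then 4 weekly doses of 1 mg DMBA, a polycyclic carcinogen, in cottonseed oil. The control group stayed on standard rodent chow. The other group received chow with 0.1% GW9662, an irreversible inhibitor of the nuclear receptor PPARγ, from the day after the last dose of DMBA. RNA of 5 mice was pooled per diet and hybridized to 1 Affymetrix array, so there were 2 arrays, no replicates and no test between the diets. The number of arrays limits the precision of every value, and variation between mice cannot be separated from the diet.

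The luminal layer of the mammary gland holds hormone-sensing cells, which carry estrogen and progesterone receptors, and secretory progenitor cells, which form milk-producing alveoli. Foxa1, a pioneer factor that opens chromatin for the estrogen receptor, Gata3, a zinc finger factor needed for luminal differentiation, and Tbx3, a T-box repressor needed to form the mammary bud, are associated with the hormone-sensing state, and Spdef, an ETS factor, with luminal and secretory epithelium. Elf5, an ETS factor, directs alveolar differentiation downstream of prolactin. Ehf and Elf3 are epithelial ETS factors, Id2 is a helix-loop-helix inhibitor needed for alveolar growth, Nfib is a nuclear factor I protein that acts on milk genes, and Sox9 is a factor of luminal progenitor and stem cells. The first 4 genes were grouped as hormone-sensing factors and the other 6 as alveolar and progenitor factors. Gata3 and Spdef also act in secretory cells, so this grouping is a simplification.

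The sequence before the transcription start is shown for the factors with the largest ratio in each direction at their brightest probe sets, Foxa1, which was higher in the GW9662 tumors, and Elf5, which was lower. Each run is the 250 bases upstream of a RefSeq start of assembly GRCm38.p6, and Elf5 has 2 starts in the table. Capitals mark a match to a searched motif.
Foxa1, minus strand, chr12:57546112-57546361: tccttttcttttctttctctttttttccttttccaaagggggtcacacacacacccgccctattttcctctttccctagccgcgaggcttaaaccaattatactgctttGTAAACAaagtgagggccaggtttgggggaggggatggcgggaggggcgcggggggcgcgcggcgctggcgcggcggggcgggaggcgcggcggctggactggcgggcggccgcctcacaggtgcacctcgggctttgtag
Elf5 first start, plus strand, chr2:103411848-103412097: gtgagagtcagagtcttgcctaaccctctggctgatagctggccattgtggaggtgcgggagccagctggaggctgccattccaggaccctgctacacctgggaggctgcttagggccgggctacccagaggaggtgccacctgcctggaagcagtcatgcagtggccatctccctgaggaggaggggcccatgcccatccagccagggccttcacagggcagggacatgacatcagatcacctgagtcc
Elf5 second start, plus strand, chr2:103423818-103424067: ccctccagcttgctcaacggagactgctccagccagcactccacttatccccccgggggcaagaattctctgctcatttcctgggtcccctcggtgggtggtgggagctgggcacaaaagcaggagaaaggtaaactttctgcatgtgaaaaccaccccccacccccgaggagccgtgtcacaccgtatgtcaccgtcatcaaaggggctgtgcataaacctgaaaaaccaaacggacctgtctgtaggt
The motifs searched on both strands were AGGTCA, a nuclear receptor motif, TTCNNNGAA for STAT factors, AGATAA for GATA factors, TGTTTAC for forkhead factors and CCGGAAG for ETS factors. Over all 32851 promoters of this length, 14.02% held AGGTCA, 7.02% TTCNNNGAA, 9.99% AGATAA, 3.17% TGTTTAC and 6.91% CCGGAAG. The table held 7 promoters of 6 of the 10 genes. The 1 match among them was the forkhead sequence in the Foxa1 promoter, read on the opposite strand as GTAAACA between 141 and 135 bases before the start. The arrays did not measure binding, and these matches are a description of the sequence.

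A linear signal intensity was deposited for each probe set. The sources used here do not say how it was scaled. Both arrays had a 2% trimmed mean of 500.2. Signals of 33 olfactory receptor probe sets, genes that mammary tumors should not express, reached at most 25.8. A signal of 100 was used as a floor, and where both signals were below it no fold was given. Of the 20 probe sets, 15 reached 100 on either array, and these read 9 of the 10 genes. Spdef was below the floor on both arrays. Signals of different probe sets do not rank the abundance of different genes, so each probe set was compared only between the arrays. The only repeat measure was a second probe set of the same gene. Over 2639 genes, the log2 ratio (GW9662 over control) had an SD of 0.36 among the probe sets of 1 gene. This spread holds no variation between mice or arrays. Luminal keratin genes were bright on both arrays. Krt8 gave 9496.4 in the control pool and 9664.7 in the GW9662 pool, and Krt18 gave 10018 and 9025.3.

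The hormone-sensing factors that could be read had higher signals in the GW9662 tumors, whereas the alveolar and progenitor factors were mixed. At their brightest probe sets Elf5, Ehf, Sox9 and Id2 were lower, 4 of 6, and Nfib and Elf3 were higher, 2 of 6, with Id2 and Elf3 nearly level and Elf3 turning to -0.02 on the log2 scale relative to pan-luminal genes. At these probe sets Elf5 differed by the most, 2.03-fold lower, while a dimmer Nfib probe set was 4.27-fold higher. Elf5 was the only one of the factors to differ by 1.5-fold or more at its brightest probe set with a signal reaching 300 in either pool. Of the 8 factors with such a signal, 1 was at least 1.5-fold lower and 0 were at least 1.5-fold higher. Among all 6053 genes with such a signal, 9.8% were at least 1.5-fold lower and 6.39% at least 1.5-fold higher. At 2-fold, 1 of 8 was lower and 0 were higher, beside 4.68% and 1.02% of all genes. At the 3-fold threshold of the study's methods 0 of 8 passed in either direction, beside 2.68% and 0.215% of all genes. The count at 1.5-fold lower was 2 when ratios were taken relative to pan-luminal genes or as the median over probe sets, with Sox9 beside Elf5, and also 2 at the second brightest probe sets, with Ehf beside Elf5.

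Foxa1 gave a signal of 3037.5 in control tumors and 3992.6 in GW9662 tumors, 1.31-fold higher. Its log2 ratio of 0.39 was close to the SD between probe sets, and the gene was read by a single probe set. Gata3, also read by 1 probe set, had signals of 1661.9 and 1919.3, 1.15-fold higher. Tbx3 had 366.5 and 445.4 at its brighter probe set, 1.22-fold higher, and its other probe set, with 9.8 and 17.3, lay within the range of the olfactory receptors. Spdef had signals of 70.1 and 88.1. All of these differences are small, and the ratios of Gata3 and Tbx3 were smaller than the SD between probe sets of a gene. In all, 3 of 3 measured hormone-sensing factors had a higher signal with GW9662, as did 52.5% of the 8206 genes reaching 100 in either pool, and their median log2 ratio was 0.28 beside 0.02 for those genes.

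**Figure D1:**
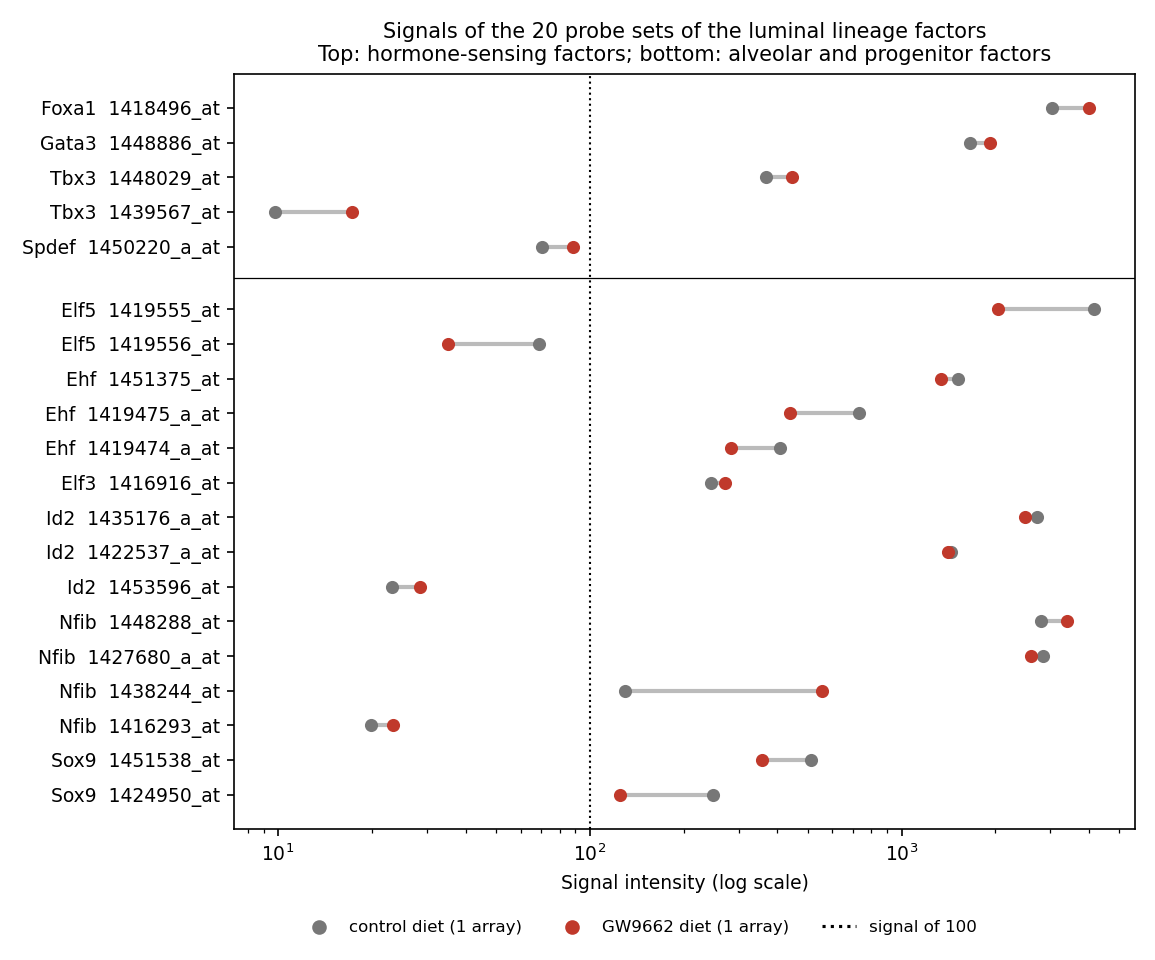
Signal intensity of the 20 probe sets of the luminal lineage factors (log axis). Gray points are the control diet and red points the GW9662 diet. Each row is 1 probe set with 1 array per diet, the dotted line marks a signal of 100, and levels in different rows are not comparable. Elf5 (4138.4 and 2040.0) and an Nfib probe set (129.7 and 553.9) have the longest lines to the right of the dotted line, and all 3 Ehf probe sets and both Sox9 probe sets are lower on the GW9662 array.

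Elf5, the factor that directs alveolar differentiation, gave 4138.4 in control tumors and 2040.0 in GW9662 tumors. Its log2 ratio was -1.02, which lay beyond the 5th percentile of all genes reaching a signal of 300, -0.95. It did not lie beyond that of all genes reaching 100, -1.09. The dimmer Elf5 probe set had 68.8 and 35.1, below the floor on both arrays, so it gives no fold. Ehf was lower at each of its 3 probe sets by different amounts. The brightest had 1512.9 and 1338.0, 1.13-fold lower. The next had 733.0 and 439.4, 1.67-fold lower, and the dimmest had 408.8 and 283.5, 1.44-fold lower. The last 2 of these carry the _a suffix, which marks probe sets that read several transcripts of 1 gene. Among 570 genes with exactly 3 probe sets at or above the floor, 23.2% were lower at all of them. Both Sox9 probe sets were lower, with 513.3 and 356.4 at the brighter, 1.44-fold, and 248.9 and 124.6 at the dimmer, 1.998-fold. Among 1927 genes with exactly 2 such probe sets, 34.3% were lower at both, so a shared direction at 2 probe sets is common.

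Id2 and Elf3 were nearly level. The brightest Id2 probe set gave 2724.4 and 2485.6 and the next gave 1436.1 and 1413.6, 1.096-fold and 1.02-fold lower, and another with 23.2 and 28.6 was below the floor. Elf3, read by 1 probe set, had 244.6 and 271.3, 1.11-fold higher, and its log2 ratio of 0.15 turned to -0.02 when the arrays were centred on pan-luminal genes. Nfib was read by 4 probe sets that did not go the same way. The brightest had 2805.6 and 3393.9, 1.21-fold higher, and the next had 2849.8 and 2599.5, 1.096-fold lower. A dimmer probe set gave 129.7 in control tumors and 553.9 in GW9662 tumors, 4.27-fold higher, and the last had 19.9 and 23.4, below the floor. The log2 ratios of the 3 measured Nfib probe sets spanned 2.23, and of the 570 genes with exactly 3 such probe sets 0.702% spanned as much. No direction was read for Nfib as a whole, and the counts and medians of the factors use its brightest probe set only. The exons read by these probe sets were not analysed here.

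Read at probe sets in place of genes, 13 of the 20 reached 300 in either pool. Of these, 2 were at least 1.5-fold lower, 1 for Elf5 and 1 for Ehf, beside 10.9% of 8464 probe sets, and 1, for Nfib, was at least 1.5-fold higher, beside 6.53%. The Nfib probe set was the only one past 3-fold, beside 0.378% of probe sets in that direction and 2.56% in the other. Over the alveolar and progenitor factors, 9 of 12 probe sets at or above the floor were lower and 3 were higher, and over the hormone-sensing factors 3 of 3 were higher. Among 12246 probe sets, 50.1% were lower and 49.9% higher. The 12 probe sets belong to 6 genes, and probe sets of a gene share the RNA pool and array, so they are not separate observations. At the brightest probe sets, 4 of 6 alveolar and progenitor factors were lower and 2 were higher, with log2 ratios from -1.02 to 0.27 and a median of -0.15, beside 47.5% of genes reaching 100 that were lower. The median of the hormone-sensing factors was higher by 0.44 on the log2 scale. The groups overlapped, since Nfib, at 0.27, lay above Gata3, at 0.21.

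Genes that mark the same cell states were set beside the factors. The lists were written from general knowledge with earlier results of these data known, so their counts are a description and not separate support. Tnfsf11, the RANK ligand made by hormone-sensing cells, had signals of 1300.1 and 3247.9, 2.50-fold higher with GW9662, and Myb had 446.2 and 1023.6, 2.29-fold higher. Cited1, a coactivator in estrogen-responsive cells, had 2873.4 and 3937.8, and Cxcl15 had 1998.9 and 2607.6. Xbp1, a factor of the secretory stress response, was lower (7284.4 and 4618.9), as was Prom1 (1211.2 and 966.3). Of 20 listed hormone-sensing markers, 14 were on the array and 9 reached the floor. Of these 7 were higher and 2 lower, with a median log2 ratio of 0.45 beside 0.02 for all genes reaching 100. At least 1.5-fold higher were 4 and at least 1.5-fold lower 1, beside 6.39% and 9.8% of all genes reaching 300. Without probe sets of an _s or _x suffix, such as those read for Xbp1 (_s) and Myb (_x), the list median was 0.38. The estrogen receptor gene Esr1, a partner of Foxa1, had signals of 13.3 and 13.2, within the range of the olfactory receptors, and the progesterone receptor gene Pgr had 56.4 and 92.5. No direction can be read for these receptors on this array.

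Most genes on the joint list of progenitor and alveolar markers were lower, as Elf5 was, and the lowest ratios were those of milk genes. The milk protein gene Wap, a target of Elf5, had signals of 750.0 and 26.6, at least 7.50-fold lower, and Lalba, which makes the lactose synthase regulator, had 329.6 and 16.5, at least 3.30-fold lower. Csn3, the kappa casein gene, was lower by less (8575 and 6908). Other casein genes, named here after their values were seen, were lower by more. Csn1s1 had 9944.5 and 609.1, 16.3-fold lower, and Csn1s2a had 9959.8 and 1123.2, 8.87-fold lower. Csn2 had 10570.2 and 1524.0, 6.94-fold lower. The progenitor markers Kit (1185 and 1375.2), a receptor kinase, and Lcn2 (6587.3 and 7501.0), a siderophore-binding protein, were the 2 with a higher signal, and the surface protein gene Cd24a was nearly level (8089.5 and 7885.5). Other progenitor markers were named after their values were seen. Cd14 was nearly level (2485.1 and 2310.7), and Aldh1a3 (599.5 and 359.4) and Ltf (1291.2 and 200.7) were lower. The progenitor markers were thus mixed, and the list median joins them with milk genes. Of 24 listed markers 19 reached the floor, 17 were lower and 2 higher. At least 2-fold lower were 9 of 19, beside 4.68% of all genes reaching 300, and the median log2 ratio was -0.84. The summed signal of the list was 78316.1 in control and 40565.9 in GW9662 tumors. Bright genes weigh most in this sum, among them Csn1s1, Csn1s2a and Csn2, so it does not describe the list evenly.

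**Figure D2:**
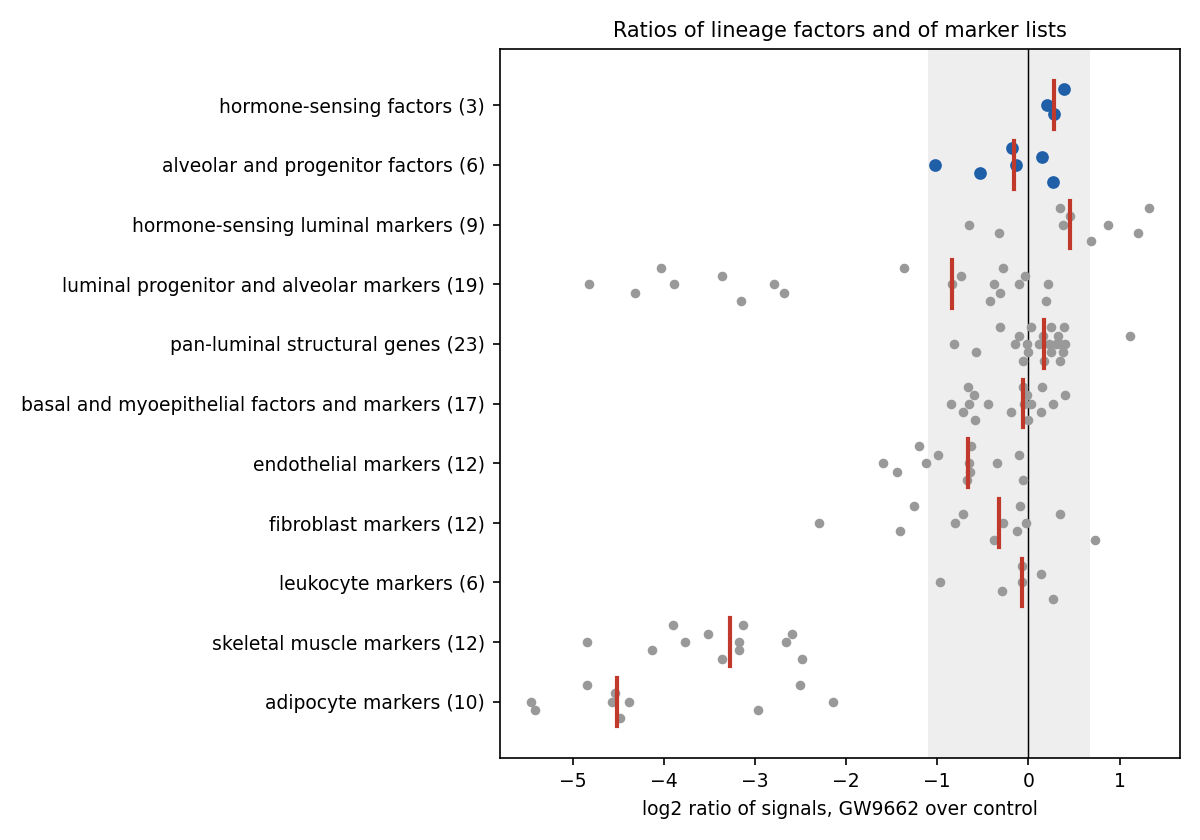
Log2 ratio of signals, GW9662 over control, at the brightest probe set of each gene reaching 100 in either pool, in blue for the luminal lineage factors and in gray for marker lists, with the number of genes in parentheses. The red lines are medians and the shaded band runs from the 5th to the 95th percentile of all 8206 such genes, -1.09 to 0.67. The medians are 0.28 for hormone-sensing factors, -0.15 for alveolar and progenitor factors, 0.45 and -0.84 for the corresponding markers and 0.17 for pan-luminal genes, and ratios of genes with a signal below 100 on 1 array are imprecise.

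General luminal genes differed less than either set of state markers. Of 23 measured pan-luminal structural genes, such as keratins and junction proteins, 15 were higher and 8 lower, with a median log2 ratio of 0.17. The largest ratios in this list belonged to Prom2, a membrane protein of epithelial protrusions (580.9 and 1254.7), and Muc1, an apical mucin (196.0 and 111.5). Relative to the pan-luminal median, the log2 ratio was -1.19 for Elf5, -0.69 for Sox9 and -0.34 for Ehf, and it was 0.23 for Foxa1, 0.12 for Tbx3 and 0.04 for Gata3. Of 17 basal and myoepithelial genes 11 were lower and 6 higher, with a median of -0.06. Of the 14 that reached 300, 6 were at least 1.5-fold lower and 0 at least 1.5-fold higher. Among all genes reaching 300 the shares were 9.8% and 6.39%. Krt14, a basal keratin, had 1022 and 619.5, and Acta2, smooth muscle actin, had 9558.9 and 9275.4. Cdh3 (272.7 and 262.0) was counted in both the pan-luminal and the basal list.

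The tumors also differed in other tissues. The summed signal of 10 adipocyte markers was 65583.5 on the control and 7694.3 on the GW9662 array, and that of 12 skeletal muscle markers was 12367.2 and 1265. All of them were lower, with medians of -4.51 and -3.27, or -4.33 and -2.82 with signals below 100 raised to 100. Endothelial genes were lower in 12 of 12 cases (median -0.66) and fibroblast genes in 10 of 12 (median -0.33), while 6 leukocyte genes were near level (median -0.07). The squamous list had 4 genes at or above the floor, with 3 higher (median 0.31). None of the markers in these lists was listed at 0. Pparg, the target of GW9662, had signals of 712.7 and 52.0. In pooled tissue, fewer cells of a type and less RNA per cell cannot be told apart, and the part of fat, muscle and vessels in the ratios of the luminal factors was not tested.

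Other members of the same gene families were higher in some cases and lower in others. Among 14 measured ETS genes outside the set, 7 were higher and 7 lower, and the median log2 ratio was 0.03. Of the 12 that reached 300, 1 was at least 1.5-fold lower, beside 9.8% of all genes reaching 300. The brightest were Ets2 (2168.7 and 2274.1), Elf1 (1189.6 and 1188.4) and Ets1 (1201.6 and 1066.7), all within 1.13-fold. Fli1, an ETS factor of endothelium and blood, had the lowest ratio (387.5 and 227.4, 1.70-fold lower), and Erf, an ETS repressor, the highest (388.0 and 560.3). Elf5 thus had a lower ratio than each of the 14.

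Among 17 measured paralogs of the other factors, 11 were higher and 6 lower, with a median of 0.09. Of the 9 that reached 300, 2 were at least 1.5-fold lower and 0 at least 1.5-fold higher. Among all genes reaching 300 the shares were 9.8% and 6.39%. Gata2, a GATA factor of blood and vessels, was lower (235.0 and 77.2, at least 2.35-fold), in contrast to Gata3. Foxa3 had 68.5 and 121.6. Id3, another helix-loop-helix inhibitor, was 1.45-fold higher (2279.8 and 3295.6), and Id4 was level (3255.5 and 3311.5), while Id2 was slightly lower. Sox4 was higher (6107.5 and 7678.1) and Sox17, a factor of endothelium, lower (237.6 and 119.4). Of the nuclear factor I genes, Nfix was higher (2618 and 3130.5). Nfia, named here after its values were seen, was lower (650.3 and 353.8). Sox10 and Id4 were counted both among these paralogs and in the basal list.

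**Figure D3:**
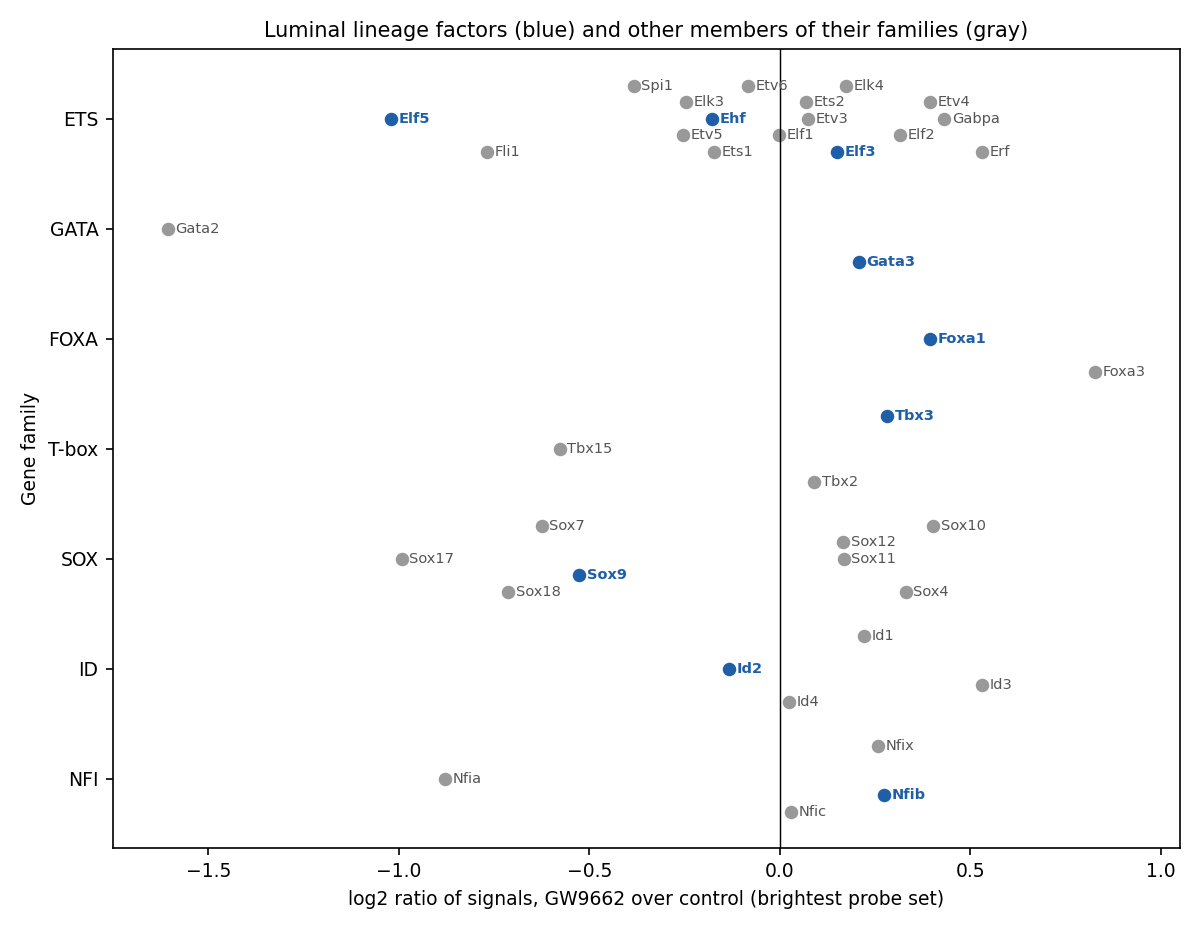
Log2 ratio of signals, GW9662 over control, at the brightest probe set of each luminal lineage factor (blue) and of each paralog or other ETS gene (gray) reaching 100 in either pool, by gene family. The ETS genes outside the set lie between Fli1, at -0.77, and Erf, at 0.53, with Elf5 at -1.02, and Gata2, at -1.61, lies on the other side of 0 from Gata3, at 0.21.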

How the data were processed

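RNA pooled from 5 mice per diet was hybridized to 1 Affymetrix mouse expression array per diet. The authors scanned the arrays and made the raw data with GeneChip Operating Software, and they deposited 1 linear signal intensity per probe set. The sources used here do not say how probe pairs were combined, scaled or called present. The signals ran from 0 to 14841.4 and were used as deposited, and the 3 control signals of 0 were read as 0.1 for log2.

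Gene names came from an old platform annotation, with symbols updated by gene identifier. Of 22690 probe sets, 691 named several genes and were not used. The brightest probe set on average stood for a gene, and the lineage factors were read at every probe set. Counts required 300 in either pool, as in the study's methods. Genes named outside the factors were, per list, the 3 brightest and the 2 largest ratios in each direction, with Esr1, Pgr and Pparg. The text gives a part of them. Nfia, Csn1s1, Csn1s2a, Csn2, Cd14, Aldh1a3, Ltf, Cdh3 and the chromosomal neighbours of Elf5 and Ehf were named outside this rule. Promoter sequences are from RefSeq, GRCm38.p6.

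The factors, lists and groups were chosen with earlier results of these data known. The fold rule was tested on simulated data. Scaling, low signals, the choice of probe set and the signal minimum were varied. Python 3.11.15, numpy 2.4.6, pandas 2.3.3, scipy 1.17.1 and matplotlib 3.10.9 were used.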

Additional observations from a re-analysis of the deposited data

How the results depend on the processing

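With 1 array per diet nothing can be said about error between mice, and no alternative left out an array. No paired analysis was possible because each diet had a single array and no test was made. Of 72 log2 ratios of single factors under other settings, 43 differed at all from the reported value, since raising low signals, leaving out suffixes or choosing another probe set cannot move a bright factor read by 1 measured probe set. Of the 43, 40 stayed within the SD between probe sets of a gene, 0.36. Most of the 43 came from changes of scaling or from adding 50 to every signal. Centring on the median of genes shifts every ratio by 0.03 and centring on pan-luminal genes by 0.17, both less than this SD. These centrings could not pass it, so the count of 40 says little about stability. The 3 values that passed it came from reading the second brightest probe set, with -0.74 for Ehf, -0.13 for Nfib and -0.998 for Sox9. For Elf5 and Foxa1, 4 settings each changed the value, with ranges of -1.19 to -1.003 and 0.23 to 0.39. Elf3 and Nfib changed direction in 1 setting each. The difference between the medians of the hormone-sensing and the alveolar and progenitor factors was the same by construction in 4 settings. In 13 others, 9 of which left out 1 measured factor, it ran from 0.40 to 0.72, the highest at the second brightest probe sets. It was 0.27 with Spdef, below the floor on both arrays, placed among the alveolar factors and Sox9 left out, a value that rests on a dim signal. The number of factors at least 1.5-fold lower was 2 in place of 1 when centred on pan-luminal genes, with the median over probe sets, and with the second brightest probe set. With that probe set, the median of the luminal progenitor and alveolar markers was -1.36. Centring on pan-luminal genes shifts every log2 ratio by 0.17. The causes were not tested. Spdef, Esr1 and Pgr were too dim for a direction to be read.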

Other observations

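Elf5 and Ehf are neighbours on the chromosome, with 0 protein-coding genes between them in the RefSeq table of GRCm38.p6, and both were lower in the GW9662 tumors. Their nearest named neighbours were read as well, a choice made after the values of both factors were seen. Cat, the catalase gene next to Elf5, had signals of 3018.2 on the control and 2611.5 on the GW9662 array at its brighter probe set and 2347.6 and 1382.4 at the other. Apip, an enzyme of methionine salvage next to Ehf, had 808.8 and 860.6. Cd44, a hyaluronan receptor beyond it, had 887.6 and 875.6 at its brighter probe set and 119.1 and 71.2 at the other. On the Elf5 side, Caprin1, an RNA granule protein, had log2 ratios of 0.24, -0.08, -0.17 and 0.38 at its 4 bright probe sets.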
